A study of Homo sapiens with 12 samples.

Results

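Expression of 10 genes for small proteoglycans and matricellular proteins was followed through interferon treatment of AC16 cells: LUM, DCN, BGN, POSTN, SPARC, TNC, THBS1, THBS2, FBLN1 and FN1. They were chosen by gene symbol, with earlier results of these data known, and are 10 of the 60649 genes in the deposited tables. Shares over all genes are set beside theirs as description only, and the genes were not matched for expression level. All 10 passed the filter on low counts, and all 12 libraries of the series were used. AC16 is an established human line derived in part from ventricular heart cells. Every library carries the same wild-type genotype label and the same batch label. Vehicle cells received PBS and were collected at 24 h. Acute cells had 24 h of recombinant human interferon alpha-2a (IFN-α2a) at 1000 U/mL and were collected as that pulse ended. Recovery cells received the same pulse and were then held for 5 days without the cytokine. Repeat cells received the pulse, 4 days without cytokine and then another 24 h pulse. No library was collected just before that later pulse, so the recovery libraries, held for 5 days, serve as its reference. Each group had 3 libraries, stated to be independent biological replicates. The labels place the repeat harvest on day 7, although the stated times add to 6 days, and they name different culture media. Each vehicle library is labelled 24 h, so recovery against vehicle, and repeat against acute, compare cells that also differ in days in culture. The earlier pulse and those days cannot be told apart.

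Small leucine-rich proteoglycans, here LUM (lumican), DCN (decorin) and BGN (biglycan), are secreted core proteins with repeated leucine-rich motifs and a few glycosaminoglycan chains. They bind collagen fibrils, set fibril spacing and hold growth factors such as TGF-beta. Matricellular proteins, here POSTN (periostin), SPARC (osteonectin), TNC (tenascin-C) and the thrombospondins THBS1 and THBS2, are secreted into the matrix to act on cells and on matrix assembly rather than to bear load. FBLN1 (fibulin-1) and FN1 (fibronectin) are structural glycoproteins to which cells and other matrix proteins attach. In the heart these genes are expressed mainly by fibroblasts, and several of them rise after injury. Interferon alpha acts on transcription largely through interferon-stimulated response elements (ISRE), and gamma-activated sites (GAS) are another class of interferon response element.

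Promoter sequence is shown because the treatment acts through factors with known DNA elements. RefSeq sequence (GRCh38.p14) was matched for 8 of the 10 genes, and the 250 bases before the annotated start were searched on both strands. The ISRE-like motif, GAAA and GAAA with any 2 bases between, was present in 1 of the 8 promoters, against 3.02% of 35116 RefSeq windows of the same length. The GAS-like letters TTCNNNGAA were present in 2 of the 8, against 6.57% of those windows. The windows of POSTN and THBS1 held the matches. The ISRE-like match was on the strand of the gene, and the GAS-like letters read the same on both strands. Annotated exon, of any gene on either strand, filled the whole SPARC window, part of which lies outside the annotated SPARC gene. It covered 50 to 111 bases of the windows of POSTN, TNC, THBS2, FBLN1 and FN1, and 0 bases for BGN and THBS1. The following stretches, 5′ to 3′ on the strand of the gene, contain no annotated exon, and capitals mark the matches. POSTN is at chr13:37598845-37599018 on the minus strand, with the ISRE-like match starting 174 bases and the GAS-like match 92 bases before the start. THBS1 is at chr15:39580829-39581078 on the plus strand, with the GAS-like match starting 207 bases before the start.
POSTN: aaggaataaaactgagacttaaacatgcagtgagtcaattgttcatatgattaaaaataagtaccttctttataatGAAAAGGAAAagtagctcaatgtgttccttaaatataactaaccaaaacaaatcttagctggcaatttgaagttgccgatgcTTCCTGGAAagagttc
THBS1: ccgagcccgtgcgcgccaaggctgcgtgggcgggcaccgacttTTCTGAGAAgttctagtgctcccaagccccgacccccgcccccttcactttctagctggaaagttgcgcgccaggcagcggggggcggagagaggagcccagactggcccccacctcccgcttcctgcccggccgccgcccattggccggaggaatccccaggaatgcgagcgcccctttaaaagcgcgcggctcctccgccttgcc
The matches are descriptions of letters, not of bound sites. Of these genes, THBS1 rose across both interferon pulses and POSTN passed the test at neither, as the values below give.

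LUM and DCN are neighbours on the minus strand of chromosome 12 (GRCh38, GENCODE release 44). LUM lies at chr12:91102629-91111494 and DCN at chr12:91140484-91183217, with 28989 bases and 0 protein-coding genes between them. The other 8 genes lie on 8 other chromosomes. BGN (chrX:153494980-153509546, plus strand) overlaps HAUS7 on the opposite strand. HAUS7 had 971 to 1551 counts per library and BGN at least 3508, and the use of strand in counting is not given in the sources used here. Noncoding and antisense genes that overlap SPARC, TNC, THBS1 and THBS2, and FSIP1, which overlaps THBS1 on the opposite strand, had at most 185 counts.

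Total estimated counts per library ranged from 39.9 to 62.3 M (1 M is 1000000), and 18119 genes were tested. The mitochondrially encoded share of counts was 5.44% to 5.76% in vehicle, 5.57% to 5.69% in recovery, 4.54% to 4.83% in acute and 4.38% to 4.59% in repeat libraries. It was lower in every library collected after a pulse, and its part in the results was not tested. Of 15 cardiomyocyte markers, 11 did not pass the count filter and had at most 14 counts in any library, including TNNT2, MYH6 and MYH7, and MYL7 had 0 in every library. Of the sarcomere genes on the list, ACTN2 alone passed the filter, with 68 to 213 counts per library. All 13 fibroblast and stromal markers, a list that leaves out the 10 genes, were expressed. Their summed TPM (transcripts per 1000000, which is per gene length) was 5150.3 to 5370.3 in vehicle, 5271 to 5452 in acute, 5164 to 5214 in recovery and 5094 to 5214 in repeat libraries. VIM (mean 2593 TPM) and COL1A1 (1196 TPM) made up most of that sum, which does not show how single markers moved; their counts by direction are given beside each comparison. In these bulk libraries, fewer cells of a type and less RNA per cell cannot be told apart.

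Compared per length, the genes covered a wide range of levels. SPARC was the most abundant of the 10, with a mean of 2896 TPM over the 12 libraries and rank 29 among all genes. FN1 followed with 1732 TPM and rank 68. THBS1 had 519 TPM and THBS2 had 279 TPM. The proteoglycan DCN had 117 TPM, close to TNC with 74.0 TPM. BGN had 34.1 TPM, POSTN 19.6 TPM, LUM 16.2 TPM and FBLN1 4.05 TPM. Most neighbours in this order had ranges over the libraries that did not overlap. The exceptions were DCN and TNC, and POSTN and LUM. In vehicle libraries DCN stood at 149 to 175 TPM, well above TNC at 58.2 to 66.04 TPM. In acute libraries the same pair overlapped, with DCN at 92.6 to 109.8 TPM and TNC at 92.3 to 96.2 TPM. Together the 10 genes took 1.02% to 1.07% of all counts in vehicle, 1.25% to 1.30% in acute, 0.948% to 0.977% in recovery and 1.09% to 1.17% in repeat libraries. FN1 alone supplied more than any other member, at 0.554% to 0.790% of counts.

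**Figure D1:**
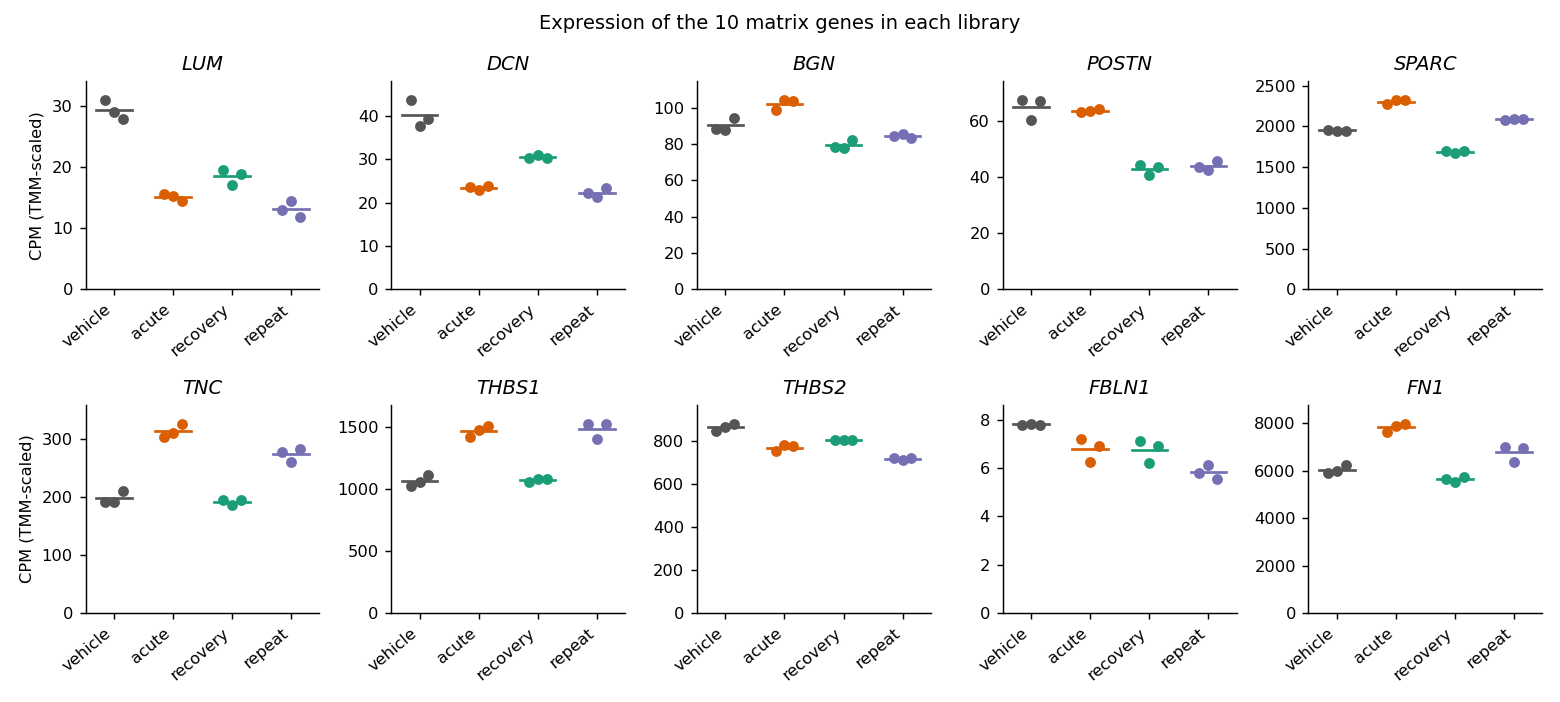
CPM (TMM-scaled counts per 1000000 counts) of each gene in each of the 12 libraries, on linear axes from 0; points are libraries and bars are group means (n = 3). LUM and DCN are highest in vehicle, TNC, THBS1, SPARC and FN1 are higher after either pulse, and POSTN separates the later from the earlier harvests.

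The 3 small leucine-rich proteoglycans did not respond alike to the first pulse: LUM and DCN fell and BGN rose. Values for single genes are given as CPM, TMM-scaled counts per 1000000 counts, which compare libraries and not genes. LUM, a keratan sulfate proteoglycan of collagen fibrils, had 31.0, 29.1 and 27.8 CPM in vehicle and 15.6, 15.3 and 14.5 CPM in acute libraries. In recovery libraries it had 19.5, 17.1 and 18.9 CPM, and in repeat libraries 12.9, 14.5 and 11.9 CPM. Vehicle was the highest group and repeat the lowest, and recovery lay between vehicle and both pulsed groups without overlap. LUM fell to 0.517 of vehicle at the first pulse, a log2 fold change of -0.95 ± 0.062 (SE, adjusted p = 4.4e-11, edgeR). At the later pulse it fell by a log2 of 0.49 ± 0.066 from recovery to repeat (adjusted p = 2.4e-06).

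DCN, which carries a single chondroitin or dermatan sulfate chain and binds collagen and TGF-beta, followed a course like that of its neighbour LUM. It had 43.7, 37.7 and 39.4 CPM in vehicle and 23.6, 22.8 and 23.9 CPM in acute libraries. After the hold it had 30.2, 30.9 and 30.2 CPM in recovery, and 22.1, 21.2 and 23.3 CPM in repeat libraries. Acute and repeat libraries overlapped, and every recovery library lay above them and below every vehicle library. The first pulse lowered DCN by a log2 fold change of -0.78 ± 0.047 (adjusted p = 1.35e-13), and the later pulse by -0.46 ± 0.048 (adjusted p = 9.48e-09). LUM and DCN were also correlated across the 12 libraries (Pearson r of log CPM 0.95), a description of libraries that share their group.

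BGN, a proteoglycan with chondroitin or dermatan sulfate chains that also acts as a ligand of Toll-like receptors, moved the other way. It had 88.5, 87.9 and 94.4 CPM in vehicle, 98.5, 104 and 104 CPM in acute, 78.6, 77.9 and 82.5 CPM in recovery, and 84.3, 85.8 and 83.4 CPM in repeat libraries. The 4 groups did not overlap, in the order acute, vehicle, repeat and recovery. The rise across the first pulse was 0.18 ± 0.030 on the log2 scale (adjusted p = 1.76e-05), and that across the later pulse was 0.084 ± 0.031 (adjusted p = 0.0276). The later rise was not called without recovery replicate 1 (adjusted p = 0.108), recovery replicate 2 (0.132) or repeat replicate 2 (0.0999), nor with DESeq2 (0.0518) or upper-quartile scaling (0.118).

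Among the 5 matricellular genes of the 10, TNC had the largest rise across each pulse. Tenascin-C is a large oligomeric glycoprotein that is scarce in healthy adult heart and reappears at sites of injury. TNC had 191, 191 and 211 CPM in vehicle and 303, 310.0 and 326 CPM in acute libraries. It returned to 194, 187 and 195 CPM in recovery and stood at 278, 261 and 283 CPM in repeat libraries. Both pulsed groups lay above both unpulsed groups, which overlapped each other. The first pulse raised TNC by 0.67 ± 0.047 on the log2 scale, 1.59-fold (adjusted p = 6.93e-07), and the later pulse by 0.51 ± 0.047, or 1.43-fold (adjusted p = 6.81e-06).

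THBS1 encodes thrombospondin-1, which can activate latent TGF-beta and binds CD47. It had 1024, 1051 and 1108 CPM in vehicle and 1418, 1469 and 1505 CPM in acute libraries. In recovery it had 1053, 1078 and 1082 CPM, and in repeat libraries 1517, 1400.2 and 1523 CPM. The pulsed groups overlapped each other, as did the unpulsed groups, with a gap between the pairs. The log2 rise was 0.46 ± 0.036 at the first pulse (adjusted p = 2.27e-07) and 0.47 ± 0.036 at the later pulse (adjusted p = 2.41e-07).

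THBS2, the related thrombospondin-2, went in the opposite direction to THBS1. Its values were 846, 866 and 882 CPM in vehicle, 753, 781 and 776 CPM in acute, 807, 808 and 804 CPM in recovery, and 722, 712 and 724 CPM in repeat libraries. The groups did not overlap, from vehicle at the top through recovery and acute to repeat. THBS2 fell by 0.17 ± 0.020 on the log2 scale at the first pulse (adjusted p = 9e-08) and by 0.16 ± 0.020 at the later pulse (adjusted p = 1.47e-07). These are small changes, to 0.890 of vehicle at the first pulse and 0.892 of recovery at the later pulse.

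SPARC, a collagen-binding protein needed for normal collagen deposition, had 1959.5, 1945 and 1944 CPM in vehicle and 2269, 2324 and 2322 CPM in acute libraries. It had 1699, 1677 and 1698 CPM in recovery and 2081, 2094 and 2090.4 CPM in repeat libraries. All 4 groups were separate, with recovery the lowest and acute the highest. SPARC rose by 0.24 ± 0.019 on the log2 scale at the first pulse (adjusted p = 1.37e-11) and by 0.30 ± 0.019 at the later pulse (adjusted p = 1.21e-13).

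POSTN was the exception among the 10. Periostin is made by activated cardiac fibroblasts and supports collagen cross-linking. POSTN had 67.6, 60.5 and 67.4 CPM in vehicle and 63.4, 63.6 and 64.5 CPM in acute libraries, and these groups overlapped. It had 44.3, 40.7 and 43.7 CPM in recovery and 43.6, 42.5 and 45.7 CPM in repeat libraries, which overlapped too. The pulses gave log2 fold changes of -0.032 ± 0.039 (adjusted p = 0.548) and 0.033 ± 0.042 (adjusted p = 0.580), so neither passed the test.

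FN1, whose product is assembled into fibrils by integrin ITGA5 with ITGB1, had 5903, 5982 and 6248 CPM in vehicle and 7619, 7868 and 7979 CPM in acute libraries. It had 5657, 5524 and 5746 CPM in recovery and 7012, 6355 and 6933 CPM in repeat libraries. The groups were separate, in the order acute, repeat, vehicle and recovery. FN1 rose by 0.37 ± 0.035 on the log2 scale at the first pulse (adjusted p = 7.39e-07) and by 0.26 ± 0.035 at the later pulse (adjusted p = 2.74e-05). Repeat replicate 2 was the lowest library of its group for FN1, THBS1 and TNC and the highest for LUM. Without it the later rise of FN1 was at the upper end of the leave-one-out range, 0.24 to 0.31, and stayed called.

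FBLN1, a component of elastic fibres and basement membranes, was the least abundant member. It had 7.79, 7.83 and 7.77 CPM in vehicle, 7.17, 6.23 and 6.92 CPM in acute, 7.10, 6.19 and 6.91 CPM in recovery, and 5.80, 6.11 and 5.54 CPM in repeat libraries. Vehicle was highest, repeat was lowest, and acute and recovery overlapped. The log2 fold change was -0.20 ± 0.077 at the first pulse (adjusted p = 0.0372) and -0.21 ± 0.078 at the later pulse (adjusted p = 0.0325). The first was not called without any 1 of the 3 vehicle libraries, acute replicate 2 or acute replicate 3 (adjusted p = 0.0608 to 0.178). The later was not called without recovery replicate 1 or 3 or repeat replicate 1 or 3 (0.0717 to 0.140), and neither was called with DESeq2 (0.103 and 0.0868) or with no count filter (0.0643 and 0.0701). The size depended on the length used: the log2 TPM fit and the fit with a length offset gave -0.40 and -0.49 at the first pulse, not called, and -0.63 and -0.72 at the later pulse, both called.

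Across the first pulse 5 of the 10 genes rose (BGN, SPARC, TNC, THBS1 and FN1), 4 fell (LUM, DCN, THBS2 and FBLN1) and 1 did not pass the test. Over all genes tested, 43.8% were called in this comparison, 22.3% higher and 21.5% lower. The later pulse, repeat against recovery, raised the same 5 and lowered the same 4 genes, where 41.6% of all genes were called, 21.1% higher and 20.5% lower. These comparisons share no library, but the share of all genes called in the same direction at both pulses was not counted. The median absolute log2 fold change of the 10 genes was 0.31 against 0.17 for all genes at the first pulse, and 0.28 against 0.17 at the later pulse. The 10 genes were chosen with earlier results of these data known, so these contrasts with all genes are descriptions. The called genes were also the ones whose groups did not overlap, 9 of 10 in each comparison, against 52.8% of all genes at the first pulse (26.5% higher, 26.3% lower) and 49.4% at the later pulse (25.2% higher, 24.2% lower). On log2 TPM, and with an offset for the length that counts over TPM imply, the first-pulse calls of BGN (0.087 and 0.061), THBS2 (-0.067 and -0.091) and FBLN1 and the later-pulse call of BGN were lost. Among the 13 fibroblast markers 3 were higher and 8 lower in acute than in vehicle libraries, and 3 were higher and 8 lower in repeat than in recovery libraries. The part of these markers in the members' changes was not tested.

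**Figure D2:**
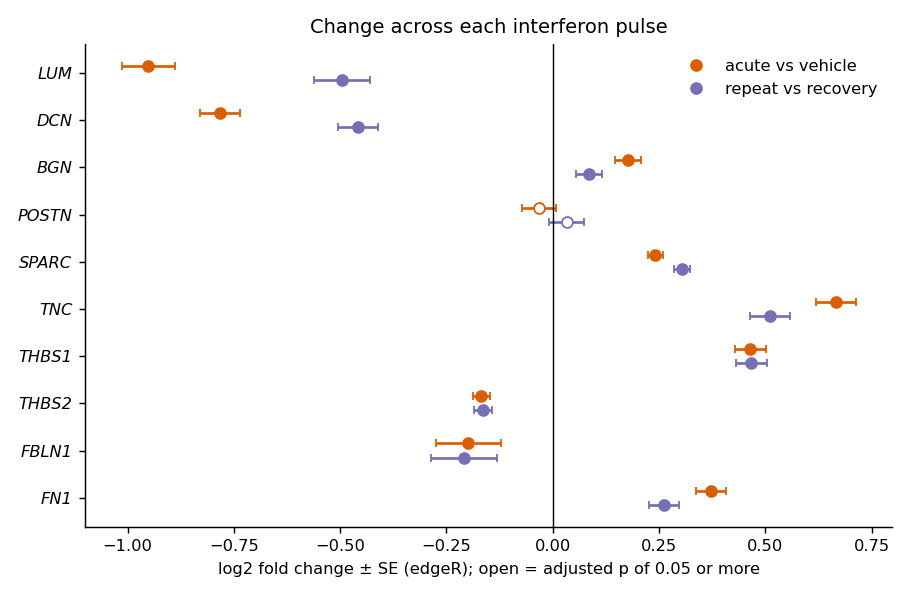
Log2 fold change (horizontal axis, ± SE, edgeR) of each gene across the first pulse (acute against vehicle) and the later pulse (repeat against recovery); filled points have an adjusted p under 0.05. LUM and DCN lie farther from 0 at the first pulse, at -0.95 and -0.78, than at the later one, at -0.49 and -0.46, while the 2 points of THBS1 and of THBS2 nearly coincide.

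The difference between the pulses, (repeat minus recovery) minus (acute minus vehicle) on the log2 scale, was tested in the same fit. The later pulse also came after more days in culture, so the earlier pulse and those days cannot be told apart here. LUM and DCN passed, 2 of the 10, both with a positive difference and so a smaller fall at the later pulse. At an unadjusted p under 0.05, 3 differences were higher and 3 lower. Of all genes tested, 0.651% were called, 0.221% higher and 0.430% lower. The difference was 0.46 ± 0.091 for LUM (adjusted p = 0.0218) and 0.33 ± 0.067 for DCN (adjusted p = 0.0186). Recovery levels, the reference for the later pulse, were already lower than vehicle for both genes. Repeat libraries overlapped acute for DCN, while for LUM every repeat library lay below every acute library. The other 8 differences did not pass: -0.15 ± 0.067 for TNC (adjusted p = 0.456), -0.11 ± 0.049 for FN1 (0.451), -0.093 ± 0.043 for BGN (0.437) and 0.063 ± 0.026 for SPARC (0.363). For POSTN, THBS1, THBS2 and FBLN1 they lay from -0.011 to 0.065. The LUM call was lost without vehicle replicate 1 or 2, acute replicate 2 or 3, or recovery replicate 2 or 3 (difference 0.40 to 0.47, adjusted p = 0.0508 to 0.0880). The DCN call was lost without vehicle replicate 1, acute replicate 2, recovery replicate 1 or 3, or repeat replicate 3 (0.26 to 0.32, adjusted p = 0.0561 to 0.0654), and neither was called on log2 TPM.

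Recovery libraries were compared with the vehicle libraries, which also had fewer days in culture. In recovery 6 of the 10 genes were lower than vehicle, 0 were higher and 4 did not pass in edgeR, and DESeq2 gave the same counts. At an unadjusted p under 0.05, 8 were lower and 0 higher. Among all genes 5.94% were called, 3.03% higher and 2.91% lower. LUM was lowest relative to vehicle, at a log2 fold change of -0.66 ± 0.061 (adjusted p = 2.83e-07), or 0.632 of vehicle. POSTN, which had not passed the test across the pulse, was lower by nearly as much, at -0.60 ± 0.041 (adjusted p = 1.24e-09). DCN was at -0.41 ± 0.045 (adjusted p = 6.54e-07). SPARC (-0.21 ± 0.019, adjusted p = 1.56e-08) and BGN (-0.18 ± 0.031, adjusted p = 2.69e-04) were lower in recovery than in vehicle although higher in acute than in vehicle. THBS2 was at -0.10 ± 0.020 (adjusted p = 0.0016). Recovery and vehicle libraries did not overlap for 8 of the 10 genes, all lower in recovery, against 23.6% of all genes in either direction, 11.8% higher and 11.8% lower.

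The 4 genes that did not pass were TNC (-0.040 ± 0.048, adjusted p = 0.763), THBS1 (0.014 ± 0.036, adjusted p = 0.912), FN1 (-0.099 ± 0.035, adjusted p = 0.136) and FBLN1 (-0.21 ± 0.077, adjusted p = 0.116). TNC and THBS1 thus had recovery values that overlapped vehicle, after rises of 1.59-fold and 1.38-fold in acute cells. FN1 was called as lower in recovery without repeat replicate 2 (-0.099, adjusted p = 0.00500) and with no count filter (adjusted p = 8.84e-04). Acute and recovery libraries were both compared with the same vehicle libraries, so these values stand side by side only. The fibroblast markers also moved here: 1 of 13 was higher and 8 were lower in recovery, COL3A1 among them (783 CPM in vehicle, 606 CPM in recovery, log2 fold change -0.37 ± 0.033). Their part in the members' changes was not tested. On log2 TPM 3 of the 10 genes were called, LUM, POSTN and SPARC.

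Repeat against acute libraries compared cells at the end of a pulse with and without an earlier one, which also differed in days in culture. Here 6 of the 10 genes were lower and 0 were higher in edgeR and in DESeq2, and 8 and 0 at an unadjusted p under 0.05, against 4.20% of all genes called, 1.77% higher and 2.43% lower. POSTN had the largest difference, -0.54 ± 0.040 (adjusted p = 1.68e-08), or 0.688 of its acute level. BGN was lower by -0.27 ± 0.030 (adjusted p = 1.58e-06), FN1 by -0.21 ± 0.035 (adjusted p = 0.00493) and SPARC by -0.14 ± 0.019 (adjusted p = 2.44e-05). THBS2 was at -0.098 ± 0.020 (adjusted p = 0.00543). TNC just passed, at -0.19 ± 0.046 (adjusted p = 0.0484), and its call was lost on leaving out any library other than vehicle replicate 1 or 3 (adjusted p = 0.0516 to 0.144). LUM (-0.21 ± 0.068, adjusted p = 0.0964), DCN (-0.083 ± 0.050, 0.426), THBS1 (0.016 ± 0.036, 0.889) and FBLN1 (-0.22 ± 0.078, 0.114) did not pass. LUM was called without repeat replicate 2, its highest repeat library (-0.29, adjusted p = 0.0193). Groups did not overlap for 8 of the 10 genes, all lower in repeat, against 20.3% of all genes, 9.98% higher and 10.4% lower. With limma on log2 TPM 0 of the 10 genes were called, although 7 had an unadjusted p under 0.05. The same comparison had 7 of 13 fibroblast markers lower and 2 higher, and their part was not tested.

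**Figure D3:**
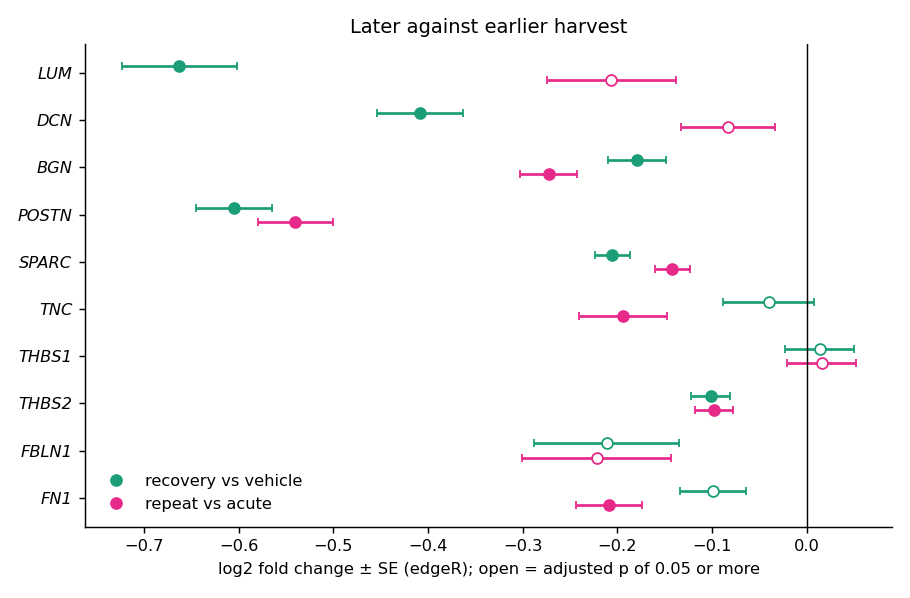
Log2 fold change (horizontal axis, ± SE, edgeR) of each gene at the later against the earlier harvest, without a pulse just before (recovery against vehicle) and with one (repeat against acute); filled points have an adjusted p under 0.05. POSTN lies at -0.60 and -0.54 in the respective comparisons, and both THBS1 points lie near 0, at 0.014 and 0.016.

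Counts and TPM did not describe FBLN1 in the same way. The gene length implied by dividing counts by TPM should be the same in every library if TPM was made from the same counts and a fixed length. Its coefficient of variation over the 12 libraries was 28.9% for FBLN1, and the median over 9689 genes with at least 500 counts was 4.47%. It was 8.19% for DCN, 6.41% for POSTN, 4.70% for BGN and 1.69% to 3.62% for the other 6. FBLN1, with 246 to 445 counts per library, is not among those 9689 genes, so that median does not describe genes at its level. The part of low counts in the spread of FBLN1 was not tested. Relative to the mean of vehicle, the implied FBLN1 length was 0.680, 0.522 and 0.779 in recovery libraries and 1.46, 0.885 and 1.22 in acute libraries. In TPM, FBLN1 had 4.59, 3.09 and 5.26 in vehicle, 2.63, 3.73 and 3.00 in acute, 5.51, 6.16 and 4.67 in recovery, and 2.96, 3.50 and 3.51 in repeat libraries. Recovery was thus lower than vehicle in CPM and overlapped it, with a higher mean, in TPM. The log2 fold change on log2(TPM + 0.5) was 0.32 for recovery against vehicle, against -0.21 in the count fit, and neither passed. FBLN1 has 18 annotated transcripts, and how the deposited TPM values used transcript lengths is not given in the sources used here.

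**Figure D4:**
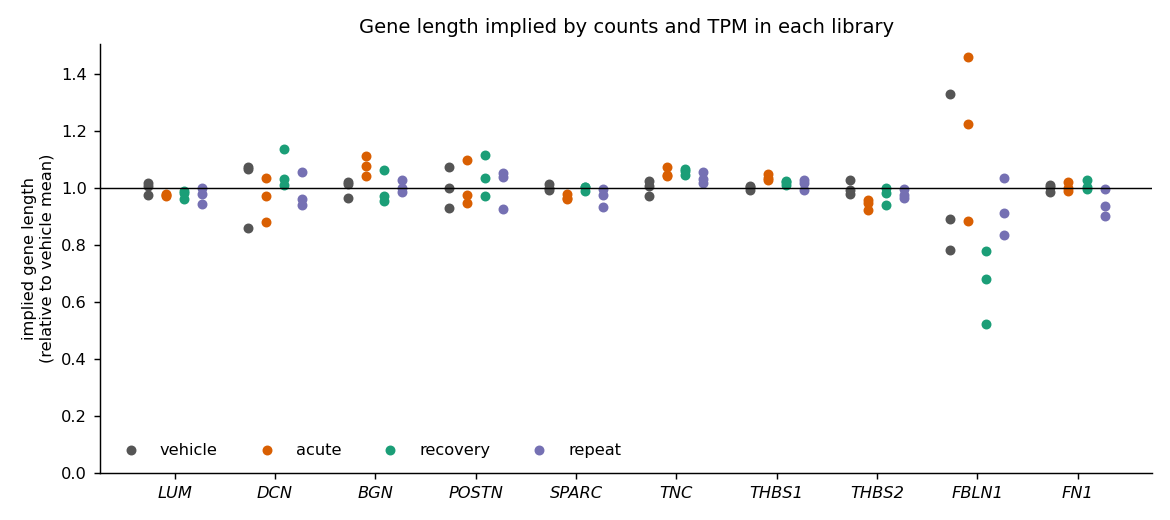
Length obtained as counts over TPM for each gene in each library, relative to the mean of the vehicle libraries (vertical axis, no unit, from 0; points are libraries, coloured by group). FBLN1 spans 0.522 to 1.46 and its recovery libraries all lie below 1, while the points of THBS1, LUM and SPARC stay close to 1.

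Other matrix genes were counted by list. Over all genes tested, 22.3% were called higher and 21.5% lower at the first pulse. For recovery against vehicle these shares were 3.03% and 2.91%. Of 14 other small proteoglycans, 6 were tested, and 1 rose and 4 fell at the first pulse. The gene that rose was TSKU (tsukushi), from 16.1 to 27.1 CPM (log2 fold change 0.75 ± 0.047). PODN (podocan) fell from 17.7 to 11.9 CPM (-0.57 ± 0.051). KERA, OGN, NYX and OPTC had 0 counts in every library. The median log2 fold change of the tested genes was -0.55, against 0.0002 for all genes. PRELP and ECM2, both among those that fell, had means of only 0.41 and 0.56 CPM, with SE of 0.33 and 0.28. FMOD, which was not called, had 0.28 CPM. In recovery 1 of the 6 passed the test, again TSKU, which was higher than vehicle (0.20 ± 0.049).

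Of 21 other matricellular genes, 13 were tested, 6 rose and 4 fell at the first pulse, with a median of 0.16. CCN2, the connective tissue growth factor, rose from 289 to 490 CPM (0.76 ± 0.044) and SPP1 (osteopontin) from 1.15 to 2.17 CPM (0.91 ± 0.17). CCN4 fell from 20.3 to 11.8 CPM (-0.78 ± 0.053). THBS3 fell as its paralog THBS2 did, from 19.9 to 14.3 CPM (-0.47 ± 0.048), and was still lower than vehicle in recovery at 15.3 CPM (-0.38 ± 0.048). In recovery 1 was higher and 2 were lower than vehicle.

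Of 19 other fibulin and elastic-fibre genes, 18 were tested, 5 rose and 9 fell at the first pulse, with a median of -0.093. LOX (lysyl oxidase) rose from 267 to 354 CPM (0.41 ± 0.022), while FBN2 (fibrillin-2) fell from 194 to 122 CPM (-0.67 ± 0.050). HMCN1 (hemicentin-1) fell by 0.60 ± 0.12 on the log2 scale, a change that was 0.0010 with the gene length offset. In recovery 2 were higher and 3 were lower. Of 20 large, basement-membrane and cell-surface proteoglycans, 14 were tested, 5 rose and 6 fell, with a median of -0.093. AGRN (agrin) rose from 259 to 509 CPM (0.97 ± 0.024) and GPC1 (glypican-1) fell from 71.1 to 33.8 CPM (-1.07 ± 0.041). In recovery 2 of them were higher and 1 was lower.

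Of 23 genes for the synthesis of chondroitin and dermatan sulfate chains, 22 were tested, 11 rose and 4 fell at the first pulse, with a median of 0.096. CHST11, a chondroitin sulfotransferase, rose from 14.8 to 21.6 CPM (0.55 ± 0.049) and was at 18.9 CPM in recovery (0.35 ± 0.049). DSEL fell from 51.2 to 40.4 CPM (-0.34 ± 0.036). In recovery 2 were higher and 1 was lower. Of 19 receptors for these matrix proteins, 14 were tested, 7 rose and 3 fell at the first pulse, with a median of 0.091. ITGA5, the alpha chain of the main fibronectin receptor, rose from 359.5 to 571 CPM (0.67 ± 0.021), in the same libraries in which FN1 was higher. ITGB8, with 95 to 391 counts per library, fell from 5.92 to 2.38 CPM (-1.32 ± 0.13). Over the 6 alternatives that kept all libraries its log2 fold change ranged from -1.35 to -0.49, and it stayed called. TLR4, a receptor for BGN, rose from 13.4 to 21.2 CPM (0.67 ± 0.056). In recovery 6 receptors were higher than vehicle and 2 were lower.

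**Figure D5:**
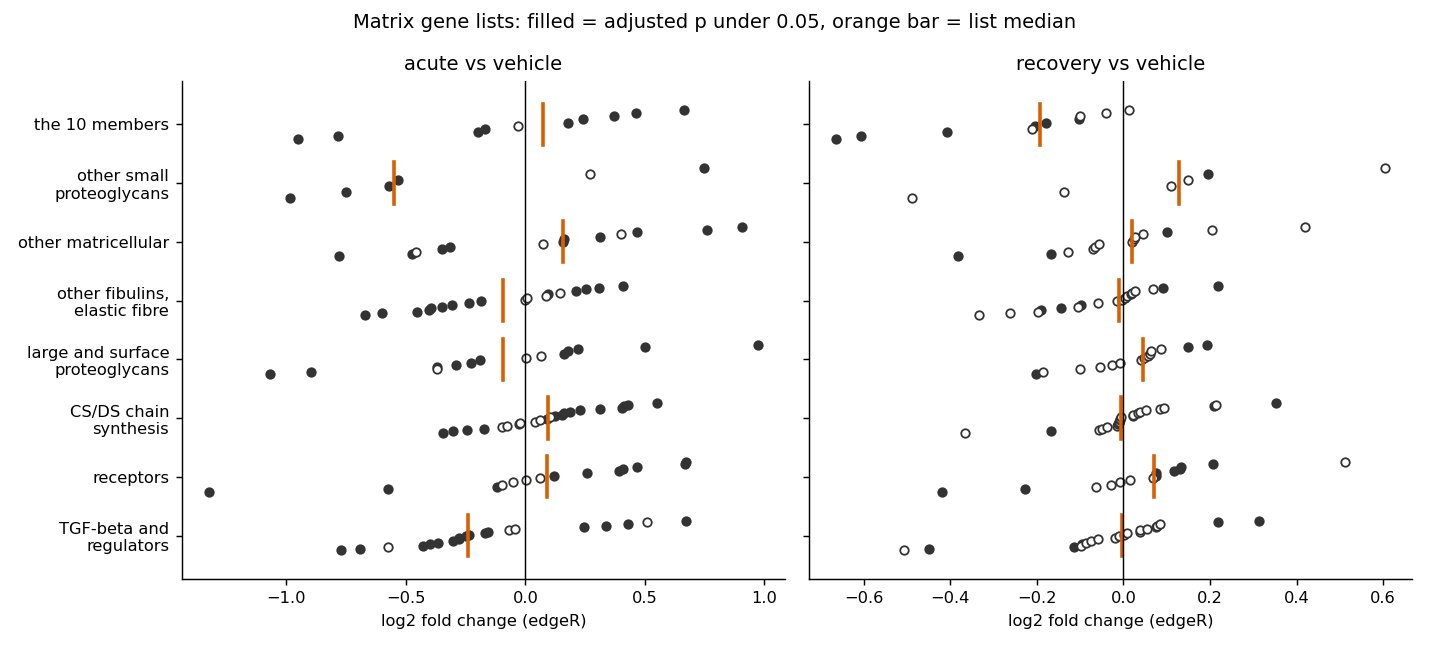
Log2 fold change (horizontal axis, edgeR) of every tested gene of the 10 and of 7 lists of other matrix and regulatory genes for acute against vehicle (left) and recovery against vehicle (right); filled points have an adjusted p under 0.05 and orange bars are list medians. The 10 genes have a median of 0.072 on the left and -0.19 on the right; the fibroblast and cardiomyocyte marker lists are not drawn.

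LUM, DCN and TNC had the widest ranges of group mean log2 CPM among the 10 genes, 1.16, 0.86 and 0.71. For each of them the 5 genes with the highest Pearson correlation of log CPM over the 12 libraries were taken from 11080 genes with a symbol and a mean of at least 5 CPM. For LUM these were CCDC80, MATN2, ADM, CADM4 and DIPK1A, with r from 0.982 to 0.988. For DCN they were HMGCS1, CTNNA1, CPE, CPZ and ACLY, with r from 0.986 to 0.989. HMGCS1 and ACLY encode enzymes of sterol and acetyl-CoA synthesis. For TNC they were MYO19, ANKFY1, VASN, PRKD2 and MARCHF4, with r from 0.988 to 0.994. After subtraction of group means the same correlations ranged from 0.46 to 0.82, and the libraries share their groups.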

How the data were processed

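Gene expression was measured by poly(A), stranded RNA sequencing with 75 bp single reads in 12 libraries, 4 groups of 3. The deposited table of estimated counts per gene is not scaled between libraries, and 25.5% of its nonzero values are not whole. The deposited TPM table is scaled by the authors to 1000000 per library. The submitters' processing notes name STAR 2.7.11a, featureCounts 2.0.3, edgeR, Trim Galore 0.6.10, Picard 2.27.5, cutadapt 4.3 and GRCh38.p13, and the design text names GENCODE release 41; which step gave non-whole values is not given in the sources used here.

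Counts were rounded and fitted over all 12 libraries and 4 groups with edgeR 4.0.16 in R 4.3.3 (quasi-likelihood, robust, TMM, filterByExpr), which tested 18119 genes with a common biological coefficient of variation of 2.67%. A gene was called at a two-sided Benjamini-Hochberg adjusted p under 0.05 over all of them. Errors of fold changes are SE. For edgeR the SE is that implied by the test, the absolute log2 fold change over the square root of the quasi-likelihood F statistic. The script was tested on simulated data. The alternatives were DESeq2 1.42.0, upper-quartile scaling, no count filter, limma 3.58.1 on log2(TPM + 0.5), an offset for implied gene length, a replicate block, and leaving out each library.

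Replicates of a group differed by 1.78 to 3.02 times the variance of Poisson counts, so none were merged, and p-values measure the spread among these libraries. Groups came from the sample titles. No table column lacked a sample. The 10 genes and the 9 lists were chosen with earlier results of these data known. From each list the text could name up to 2 genes in each direction with the largest called, non-overlapping change in acute or recovery against vehicle and a mean of at least 1 CPM. For the 3 members with the widest range, it could name the 5 genes most correlated over libraries. Genes at 0 counts, PRELP, ECM2 and FMOD, overlapping genes and marker genes below the filter were named after their values were seen. Symbols came from GENCODE release 44, which matched 60463 identifiers.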

Additional observations from a re-analysis of the deposited data

Results flagged for a closer look

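The responses of LUM and DCN to the later pulse differed from their responses to the first, by the test of that difference. Cells given the later pulse also had more days in culture, and those days and the earlier pulse cannot be told apart. On the log2 scale, repeat minus recovery less acute minus vehicle was 0.46 for LUM (SE 0.091, adjusted p = 0.0218) and 0.33 for DCN (SE 0.067, adjusted p = 0.0186; edgeR). LUM fell by 0.95 at the first pulse and by 0.49 at the later pulse, and DCN by 0.78 and by 0.46, in 3 libraries per group. In both genes the recovery libraries were lower than vehicle, by 0.66 for LUM and by 0.41 for DCN. Each call was lost in some of the 12 fits that left out 1 library, 6 for LUM and 5 for DCN.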

How the results depend on the processing

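With all libraries kept, the number of the 10 genes called for recovery against vehicle went from 6 to 3 on log2 TPM, and for repeat against acute from 6 to 0 on log2 TPM (limma) and 0 with the gene length offset (edgeR). For the difference between pulses it went from 2 to 1 with DESeq2 (SPARC), and to 0 on log2 TPM and 0 with the offset. At an unadjusted p under 0.05 these fits of 0 calls had 7, 7, 2 and 2 genes. DESeq2 gave no adjusted p for LUM, DCN, POSTN and FBLN1 in that difference, and its unadjusted p was 1.23e-05 for LUM and 6.86e-05 for DCN. Leaving out 1 library gave 0 to 2 calls for the difference: 0 without vehicle replicate 1, acute replicate 2 or recovery replicate 3, and 1 without vehicle replicate 2, acute replicate 3, recovery replicate 1 or 2, or repeat replicate 3. The cause was not tested.

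The calls that held under every alternative run were LUM, DCN, SPARC, TNC, THBS1 and FN1 at the first pulse, these and THBS2 at the later pulse, and LUM, POSTN and SPARC in recovery against vehicle. Signs changed only for values that passed in neither fit, apart from HMCN1 (0.0010 with the offset, not called). On log2 TPM and with the offset respectively, recovery against vehicle was -0.016 and -0.014 for THBS1 and 0.32 and 0.34 for FBLN1, repeat against acute was 0.087 and 0.11 for FBLN1, and the difference was -0.10 and -0.091 for THBS2. The difference for BGN was 0.0022 with the offset. Leaving out 1 library, repeat against recovery ranged from -0.0037 to 0.057 for POSTN, and recovery against vehicle from -0.066 to 0.0097 for TNC and -0.011 to 0.046 for THBS1. Repeat against acute ranged from -0.0071 to 0.054 for THBS1, and the difference from -0.029 to 0.040 for THBS1, -0.013 to 0.019 for THBS2 and -0.068 to 0.036 for FBLN1.

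Over all genes the calls fell from 7938 to 4324 on log2 TPM and 4417 with the offset at the first pulse, from 7546 to 3812 and 3971 at the later pulse, from 1076 to 120 and 178 for recovery against vehicle, from 761 to 6 and 10 for repeat against acute, and from 118 to 5 and 11 for the difference, for which DESeq2 called 235 and the fit with no count filter 333. Leaving out libraries, a choice added after seeing the data, gave 624 to 1167 for recovery against vehicle (624 without vehicle replicate 1, 707 and 716 without recovery replicates 2 and 3), 337 to 1218 for repeat against acute (1218 without repeat replicate 1, 337 to 499 without any 1 acute library or repeat replicate 2 or 3) and 56 to 323 for the difference (323 without repeat replicate 1, 56 to 68 without vehicle replicate 1 or 2, acute replicate 2 or 3, any 1 recovery library or repeat replicate 3).

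Deviations of same-numbered libraries correlated weakly, at -0.082 to 0.076, while 7 of the 12 correlated best with their own number. These values do not settle whether replicate numbers pair the libraries. The replicate block lowered the first-pulse SE of TNC from 0.047 to 0.025, and that of FBLN1 stayed at 0.077. With the replicate block 9, 9, 7, 6 and 3 of the 10 genes were called in the 5 comparisons, adding FN1 in recovery against vehicle (adjusted p = 0.0452) and TNC in the difference (0.0302). FBLN1, the member with the fewest counts (5.54 to 7.83 CPM), had the largest SE of the 10 at each pulse.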

Other observations

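Of 20 TGF-beta genes and regulators of matrix transcription, all 20 were tested, and 4 rose and 12 fell at the first pulse, with a median log2 fold change of -0.24 against 0.0002 for all genes. TGFB1 rose from 101 to 136 CPM (0.43 ± 0.032 SE) and SMAD7, an inhibitor of the pathway, from 15.9 to 25.4 CPM (0.67 ± 0.052). TGFB2 fell from 103 to 60.3 CPM (-0.77 ± 0.058) and the receptor gene TGFBR1 from 58.6 to 36.4 CPM (-0.69 ± 0.035). In recovery 2 were higher than vehicle and 3 were lower. TGFB2 was still at 75.4 CPM (-0.45 ± 0.057), and TGFBR2 was higher, at 126 CPM against 101 CPM in vehicle (0.31 ± 0.028).

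Of the 4 cardiomyocyte markers tested, 1 rose and 1 fell at the first pulse. Their summed level was 201 to 211 TPM in vehicle, 217 to 236 TPM in acute, 202 to 218 TPM in recovery and 207 to 227 TPM in repeat libraries, nearly all of it ATP2A2 (mean 209 TPM). In counts ATP2A2 did not pass the test at the first pulse, with 519.96 CPM in vehicle and 514 CPM in acute libraries (log2 fold change -0.016 ± 0.021, adjusted p = 0.585). In recovery 1 was higher than vehicle and 1 was lower. ACTN2 was the higher, at 1.48 CPM in vehicle and 2.94 CPM in recovery (0.99 ± 0.14), a call lost in 2 of 6 alternatives, on log2 TPM, where the change was 0.59, and with the gene length offset. NPPB, named after its values were seen, was the lower, at 0.519 and 0.158 CPM (-1.71 ± 0.34). Among the fibroblast markers FAP fell from 63.9 to 40.7 CPM (-0.65 ± 0.034) and TAGLN rose from 229 to 287 CPM (0.32 ± 0.024) at the first pulse.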
